A study of Mus musculus with 8 samples.

Results

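Genes by which macrophages and dendritic cells are recognised were examined in the ileum of mice that lack Slc51a, which encodes the alpha subunit of the transporter that carries bile acids out of enterocytes at their basolateral side. The 35 genes were taken from a list drawn up by name, with earlier results of these data known. Of these, 34 were measured among 17097 genes tested. Siglech, a plasmacytoid dendritic cell gene, had no probe set with that single symbol and was not analysed here, and Lilrb4 was read as Lilrb4a. By their known use, 14 genes were classed as macrophage genes, 5 measured genes as dendritic cell genes and 15 as shared by both. The samples were ileal tissue from 4 Slc51a knockout males and 4 wild-type males on a C57BL/6 background, about 2 months old, fasted for 4 h and killed under ketamine-xylazine anaesthesia. The sources used here do not state where the Slc51a gene was cut or whether all cells lost it. Each sample was run on 1 Affymetrix array, and the values are log2 signals, on which a difference of 1 is a doubling. A difference is the knockout mean less the wild-type mean of 4 mice each, and its standard error is written SE. Every adjusted p is from limma, corrected by the Benjamini-Hochberg method for 17097 tests, and rose and fell are used only of genes under the threshold of 0.05.

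Macrophages and dendritic cells are the mononuclear phagocytes of the gut. Macrophages depend on the growth factor receptor Csf1r and clear dead cells and microbes in the lamina propria and the muscle layer, and dendritic cells depend on Flt3, take up antigen and carry it to T cells. Both lineages need the transcription factor PU.1, the product of Spi1, which binds purine-rich sites with a GGAA core. Many of their surface receptors signal through the adaptors Tyrobp and Fcer1g, which carry an activating tyrosine motif called ITAM.

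Promoter windows of 5 members are shown because PU.1 is the shared regulator of this cell family. They are examples from the groups described below: Ctss and Clec7a as shared genes that fell, C1qc and C1qb as neighbouring subunit genes of 1 complex, and Mrc1 as a gene that rose. The sequences are from RefSeq on GRCm38.p6, run 5′ to 3′ on the gene's strand and cover the 250 bases before the annotated start. Capitals mark GAGGAA, a core bound by PU.1, or its reverse complement TTCCTC. Every window shown holds a match, whereas those of Fcer1g, Mpeg1, Itgax, Flt3 and Lyz2, which also fell, hold none. Ctss lies at chr3:95526536-95526785 on the plus strand, C1qc at chr4:136892915-136893164 on the minus strand, C1qb at chr4:136886201-136886450 on the minus strand, Clec7a at chr6:129472780-129473029 on the minus strand and Mrc1 at chr2:14229164-14229413 on the plus strand.
Ctss: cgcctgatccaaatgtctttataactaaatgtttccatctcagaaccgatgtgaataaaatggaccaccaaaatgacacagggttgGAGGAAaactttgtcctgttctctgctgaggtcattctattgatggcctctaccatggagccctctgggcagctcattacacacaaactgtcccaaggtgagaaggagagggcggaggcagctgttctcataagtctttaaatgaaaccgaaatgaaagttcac
C1qc: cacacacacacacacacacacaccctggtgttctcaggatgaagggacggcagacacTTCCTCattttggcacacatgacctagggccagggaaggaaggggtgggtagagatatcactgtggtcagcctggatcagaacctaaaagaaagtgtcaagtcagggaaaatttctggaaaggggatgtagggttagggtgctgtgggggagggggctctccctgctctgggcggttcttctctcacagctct
C1qb: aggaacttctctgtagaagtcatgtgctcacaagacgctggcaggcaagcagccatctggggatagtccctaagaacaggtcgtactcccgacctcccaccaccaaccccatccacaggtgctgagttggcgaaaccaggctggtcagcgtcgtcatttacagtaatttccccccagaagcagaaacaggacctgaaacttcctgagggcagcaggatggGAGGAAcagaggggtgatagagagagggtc
Clec7a: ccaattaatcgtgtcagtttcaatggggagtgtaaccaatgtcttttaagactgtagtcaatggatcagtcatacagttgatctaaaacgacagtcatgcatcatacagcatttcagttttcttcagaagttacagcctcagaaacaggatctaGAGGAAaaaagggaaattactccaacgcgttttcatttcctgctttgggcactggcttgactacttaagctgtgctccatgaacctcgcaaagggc
Mrc1: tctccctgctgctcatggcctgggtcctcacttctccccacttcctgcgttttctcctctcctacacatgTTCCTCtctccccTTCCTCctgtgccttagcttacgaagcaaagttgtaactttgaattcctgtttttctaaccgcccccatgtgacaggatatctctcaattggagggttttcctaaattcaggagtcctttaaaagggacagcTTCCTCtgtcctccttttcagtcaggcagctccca
Of the 34 measured members, 21 were in the promoter table, with 23 windows. GAGGAA was present on either strand in 14 of the 23 windows (60.9%) and in 23.3% of the 32851 windows of the whole table. Clec7a and Fcgr3 each have overlapping windows that hold the same match, counted once per window. By gene, GAGGAA was present in 12 of 21 members and in 6986 of 27025 genes of the whole table. It was present in 6 of 11 windows of genes that fell, in 7 of 11 windows of genes that did not pass the test and in the 1 window of a gene that rose. By gene these were 5 of 10, 6 of 10 and 1 of 1. The longer form GAGGAAGT, which contains GAGGAA, was found in 1 of the 23 windows, that of C1qc, and in 2.44% of all windows. A composite element for PU.1 with an IRF factor, GGAA followed after any 2 bases by GAAA, was found in both windows of Clec7a and in that of Fcgr2b, 13% of the 23 windows, and in 2.3% of all windows. The Clec7a windows share this match, so by gene it was found in 2 of 21 members and in 724 of 27025 genes. These matches describe the letters of the windows and were not linked to binding.

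The targeted gene was checked first. Slc51a averaged 4.60 ± 0.09 in knockout samples and 11.36 ± 0.05 in wild-type samples (SD, n = 4 each). The array medians lay between 4.56 and 4.60, and the median over all probe sets was 4.58. Of the 34 members, 28 reached that median in at least 1 genotype. The 6 below it in both were Xcr1, Clec10a, Cd163, Cd68, Itgam and Cd86, whose differences may be understated. The probe sets of 6 members, Trem2, Clec4n, Lilrb4a, Lyz2, Aif1 and Laptm5, carry identifiers that mark possible binding to similar transcripts. Control probes that match no transcript had medians of 3.16 to 3.23.

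Most of the phagocyte genes that differed were lower in the knockout. Of the 34 measured members 16 fell, 2 rose and 16 did not pass the test. Of the members 47.1% fell and 5.88% rose, against 12.9% and 17.1% of all genes tested, where 30.0% passed in either direction. The median difference of the members was -0.24, and that of all genes was 0.01. Of the genes that fell, 5 did so by at least 1.5-fold, and the largest fall was 1.76-fold, in Ctss. All 4 knockout samples lay below all 4 wild-type samples in 14 members, and above them in 1, where 12.8% and 18.0% of all genes did so, 30.7% together. In bulk tissue, fewer phagocytes and less of a transcript in each of them cannot be told apart.

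**Figure D1:**
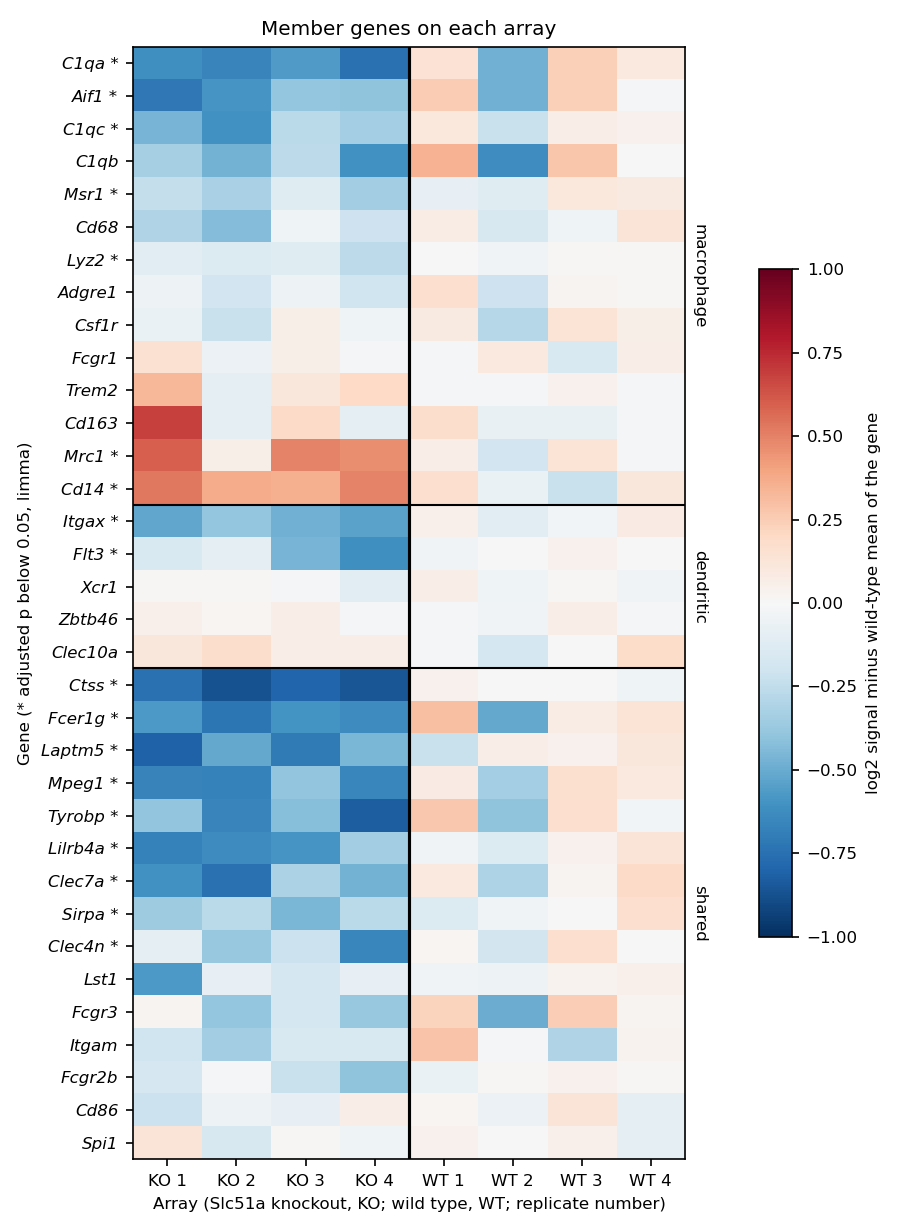
Signal of the 34 measured genes (rows) on each of the 8 arrays (columns), as log2 signal minus the wild-type mean of the gene, with an asterisk where the adjusted p was under 0.05. The knockout columns are mostly blue in the shared genes, with 9 of 15 called lower, and wild type replicate 2 is pale to blue in most rows.

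Of 4 regulators and growth factor receptors of the lineages, Flt3 passed the test, and Csf1r, Spi1 and Zbtb46 did not. Flt3, the receptor for the dendritic cell growth factor Flt3l, was at 5.15, 5.20, 4.83 and 4.68 in knockout samples and at 5.26, 5.29, 5.33 and 5.29 in wild-type samples. Knockout replicates 3 and 4 were lowest, and replicates 1 and 2 lay just under the wild-type range. It fell by 0.33 (SE 0.10, adjusted p = 0.0308). That call was lost on leaving out any single wild-type sample or knockout replicate 3 or 4, with adjusted p between 0.0534 and 0.0868. Without wild type replicate 2, knockout replicate 3 and knockout replicate 4, the arrays with the lowest hybridization controls, Flt3 differed by -0.12 (adjusted p = 0.197).

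Csf1r, the receptor on which macrophages depend, was at 6.63, 6.47, 6.75 and 6.65 in knockout samples and at 6.79, 6.41, 6.83 and 6.75 in wild-type samples. The groups overlapped, with replicate 2 lowest in both genotypes, and the difference was -0.07 (SE 0.09, adjusted p = 0.64). Without the 3 arrays just named it was -0.24 (adjusted p = 0.0449), and without wild type replicate 2 alone it was -0.16 (adjusted p = 0.106). Spi1 averaged 4.76 ± 0.12 in knockout and 4.78 ± 0.07 in wild-type samples, a difference of -0.02 (adjusted p = 0.898). Its sign changed with quantile, loess and median scaling of the arrays. Zbtb46, a transcription factor of conventional dendritic cells, averaged 4.84 ± 0.04 in knockout and 4.81 ± 0.05 in wild-type samples, with a difference of 0.03 (adjusted p = 0.677). Spi1 and Zbtb46 lay close to the median of all probe sets.

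Among the surface markers of dendritic cells, Itgax passed the test and Xcr1 and Clec10a did not. Itgax encodes CD11c, the integrin alpha chain used to recognise dendritic cells, which gut macrophages also carry. It was at 5.79, 5.92, 5.83 and 5.77 in knockout samples and at 6.36, 6.20, 6.28 and 6.39 in wild-type samples. The groups were well apart, and Itgax fell by 0.48 (SE 0.06, adjusted p = 9.15e-05), a call kept in all 21 alternative fits. Xcr1, the chemokine receptor of cross-presenting dendritic cells, averaged 3.80 ± 0.06 in knockout and 3.83 ± 0.05 in wild-type samples (adjusted p = 0.752). Clec10a, a galactose-binding lectin, averaged 4.06 ± 0.05 in knockout and 3.96 ± 0.15 in wild-type samples (adjusted p = 0.308), and passed with hybridization controls as a covariate (0.19, adjusted p = 0.0475). Both were dim, so these values do not separate a small change from none.

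Of 7 scavenger and surface receptors of macrophages, 2 rose (28.6%), 1 fell (14.3%) and 4 did not pass, shares that with so few genes lie near those of all genes, 17.1% and 12.9%. Cd14, the coreceptor for bacterial endotoxin, was at 7.29, 7.14, 7.12 and 7.26 in knockout samples and at 6.94, 6.70, 6.55 and 6.88 in wild-type samples. Every knockout sample was above every wild-type sample, and Cd14 rose by 0.44 (SE 0.08, adjusted p = 0.00211), a call kept in all 21 alternatives. Mrc1, the mannose receptor, was at 6.52, 5.98, 6.42 and 6.39 in knockout samples and at 5.99, 5.74, 6.06 and 5.92 in wild-type samples. Knockout replicate 2 lay within the wild-type range and the other three above it. Mrc1 rose by 0.40 (SE 0.11, adjusted p = 0.0173). Leaving out wild type replicate 2 gave an adjusted p of 0.053, and leaving out knockout replicate 1 or 3 gave 0.0502 each, so these fits lost the call. Mrc1 differed by 0.26 (adjusted p = 0.259) without the 3 arrays low in hybridization controls.

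Msr1, the class A scavenger receptor, was at 5.03, 4.94, 5.15 and 4.92 in knockout samples and at 5.19, 5.15, 5.37 and 5.36 in wild-type samples. The highest knockout value lay just under the lowest wild-type value. Msr1 fell by 0.26 (SE 0.07, adjusted p = 0.0157), but its 3 dimmer probe sets gave -0.08, 0.05 and -0.03, and the mean of the 4 was not called (-0.08, adjusted p = 0.193). Cd68, a lysosomal membrane protein of macrophages, averaged 4.21 ± 0.16 in knockout and 4.46 ± 0.13 in wild-type samples, a difference of -0.25 (adjusted p = 0.0546). It passed in 6 of 20 alternatives, with adjusted p between 0.00792 and 0.147 over the 20. Adgre1, an adhesion receptor that is a classic surface marker of mouse macrophages, was at 6.05, 5.92, 6.05 and 5.91 in knockout samples and at 6.28, 5.90, 6.13 and 6.11 in wild-type samples. These overlapped through wild type replicate 2, and the difference was -0.12 (adjusted p = 0.273), or -0.19 without that sample (adjusted p = 0.0527). Trem2, a lipid-sensing receptor that signals through Tyrobp, was at 4.91 to 5.33 in knockout and at 4.98 to 5.04 in wild-type samples, a difference of 0.14 (adjusted p = 0.224). Without knockout replicate 2 Trem2 differed by 0.21 and passed (adjusted p = 0.0234). Its dimmer probe set gave -0.02 with all probe sets tested (adjusted p = 0.87). Cd163, the haemoglobin scavenger receptor, was at 4.93 in knockout replicate 1 and at 4.15 to 4.44 in the other knockout samples, against 4.17 to 4.42 in wild-type samples.

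**Figure D2:**
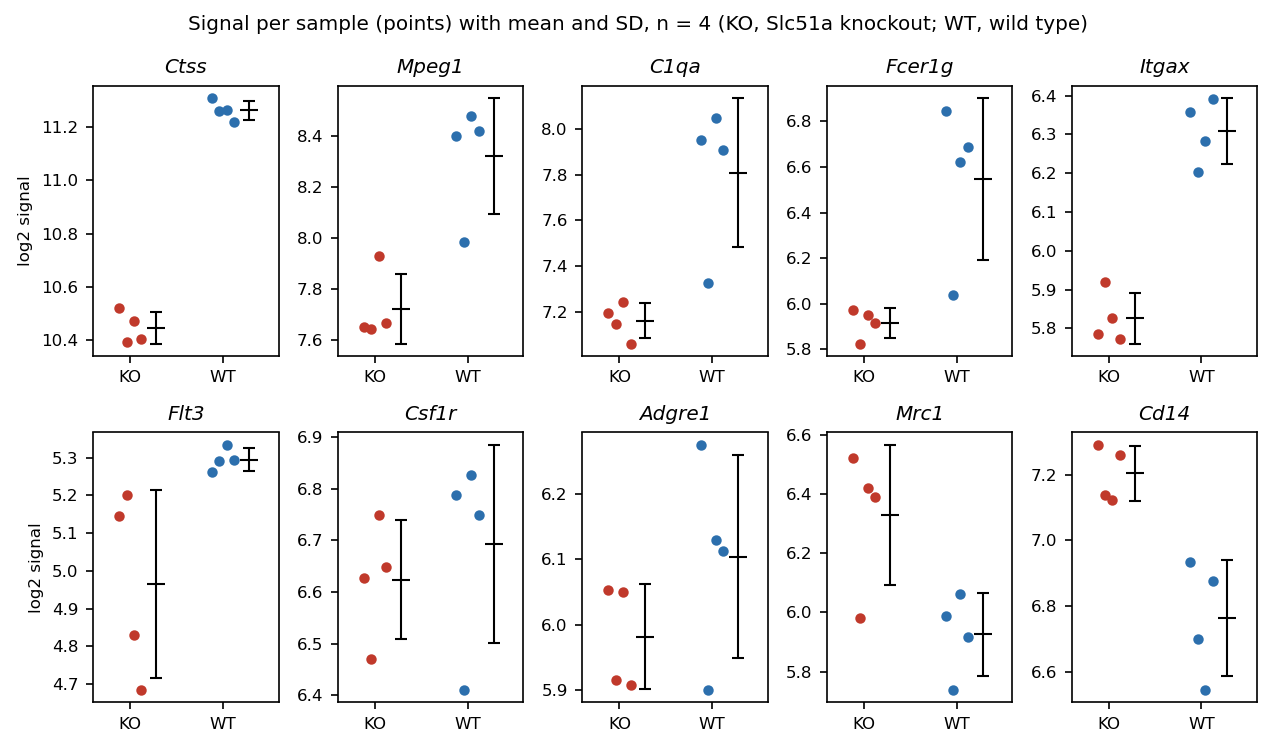
Log2 signal of 10 genes in each sample (points) with the mean and SD at the side, n = 4 per genotype, on axes that do not start at 0. Ctss, Mpeg1, C1qa, Fcer1g, Itgax and Flt3 do not overlap between genotypes, Csf1r and Adgre1 do, and Mrc1 and Cd14 are higher in the knockout.

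Of the 3 subunit genes of C1q, the recognition molecule of the classical complement pathway that macrophages secrete, C1qa and C1qc fell and C1qb did not pass the test. C1qb, C1qc and C1qa follow each other on chromosome 4 with no protein-coding gene between them. C1qa was at 7.20, 7.15, 7.24 and 7.06 in knockout samples and at 7.95, 7.33, 8.05 and 7.91 in wild-type samples. C1qc was at 6.47, 6.33, 6.66 and 6.60 in knockout samples and at 7.04, 6.72, 7.01 and 6.98 in wild-type samples. C1qb was at 7.03, 6.89, 7.10 and 6.76 in knockout samples and at 7.71, 6.74, 7.64 and 7.37 in wild-type samples. In all 3 genes wild type replicate 2 was the lowest wild-type sample, and for C1qb it lay below every knockout sample. C1qa fell by 0.65 (SE 0.13, adjusted p = 0.00328) and C1qc by 0.42 (SE 0.09, adjusted p = 0.00374), and both calls were kept in all 21 alternatives. C1qb differed by -0.42 with a wider error (SE 0.18, adjusted p = 0.109). Without wild type replicate 2, C1qb differed by -0.63 (adjusted p = 0.00149) and C1qa by -0.81 (adjusted p = 3.07e-05).

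Among Fc receptors and ITAM adaptors, Fcer1g and Tyrobp fell, and Fcgr1, Fcgr2b and Fcgr3 did not pass the test. The share that fell was 40% of 5 genes, against 12.9% of all genes. Fcer1g, the common gamma chain of activating Fc receptors, was at 5.97, 5.82, 5.95 and 5.92 in knockout samples and at 6.85, 6.04, 6.62 and 6.69 in wild-type samples. Tyrobp, the adaptor DAP12 of other myeloid and natural killer cell receptors, was at 7.27, 7.01, 7.24 and 6.84 in knockout samples and at 7.93, 7.26, 7.83 and 7.63 in wild-type samples. Wild type replicate 2 was again lowest of its group in both genes, above the knockout range for Fcer1g and inside it for Tyrobp. Fcer1g fell by 0.63 (SE 0.14, adjusted p = 0.00552) and Tyrobp by 0.57 (SE 0.14, adjusted p = 0.0093). Only the equal-variance test without moderation lost these calls (adjusted p = 0.0509 and 0.0674).

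Fcgr1, the high-affinity receptor for immunoglobulin G, averaged 4.95 ± 0.09 in knockout and 4.91 ± 0.11 in wild-type samples (adjusted p = 0.754). Fcgr3, an activating low-affinity receptor, was at 5.86, 5.44, 5.65 and 5.45 in knockout samples and at 6.05, 5.33, 6.07 and 5.86 in wild-type samples. Here too wild type replicate 2 was the lowest of its group, and the difference of -0.23 (adjusted p = 0.318) became -0.39 without it (adjusted p = 0.0192). Fcgr2b, the inhibitory low-affinity receptor, which B cells also carry, averaged 6.75 ± 0.16 in knockout and 6.95 ± 0.05 in wild-type samples. Its difference was -0.20 (SE 0.07, adjusted p = 0.0598). Of its 3 dimmer probe sets, 2 were called lower (-0.54, adjusted p = 0.0169, and -0.26, adjusted p = 0.00115), and the mean of the 4 was called (-0.29, adjusted p = 0.00399). Fcgr2b passed in 6 of 21 alternatives, with adjusted p between 0.00399 and 0.451 over the 21.

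Among lectins, integrins and inhibitory or costimulatory receptors, 4 of 6 genes fell, 0 rose and 2 did not pass. The share that fell was 66.7%, against 12.9% of all genes. Lilrb4a, an inhibitory receptor of myeloid cells, was between 4.96 and 5.28 in knockout samples and between 5.50 and 5.76 in wild-type samples. Clec7a, or dectin-1, the receptor for fungal beta-glucan, was at 6.91, 6.77, 7.20 and 7.04 in knockout samples and at 7.61, 7.20, 7.54 and 7.70 in wild-type samples. Neither gene overlapped between the genotypes, although for Clec7a the highest knockout and the lowest wild-type sample were nearly equal. Lilrb4a fell by 0.56 (SE 0.08, adjusted p = 0.000317) and Clec7a by 0.54 (SE 0.11, adjusted p = 0.00412), and both calls held in all 21 alternatives.

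Sirpa, the receptor for the "do not eat me" ligand Cd47, was at 5.67, 5.76, 5.57 and 5.76 in knockout samples and at 5.89, 6.00, 6.03 and 6.20 in wild-type samples. It fell by 0.34 (SE 0.07, adjusted p = 0.00346). Its dimmer probe sets gave 0.09 and 0.05, and the mean of the 3 was not called (-0.07, adjusted p = 0.246). Clec4n, or dectin-2, the receptor for fungal mannans, fell by 0.33 (SE 0.11, adjusted p = 0.0459), a call lost in 14 of 21 alternatives, among them all 3 rescalings. Itgam, the CD11b chain, which lies next to Itgax on chromosome 7, averaged 4.14 ± 0.09 in knockout and 4.36 ± 0.24 in wild-type samples (adjusted p = 0.159). Without wild type replicate 3 it differed by -0.31 (adjusted p = 0.0182). Cd86, a costimulatory ligand for T cells, averaged 4.50 ± 0.12 in knockout and 4.57 ± 0.10 in wild-type samples (adjusted p = 0.499). Its dimmer probe set was called lower with all probe sets tested (-0.19, adjusted p = 0.0278), and the mean of both was not called (-0.13, adjusted p = 0.106).

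**Figure D3:**
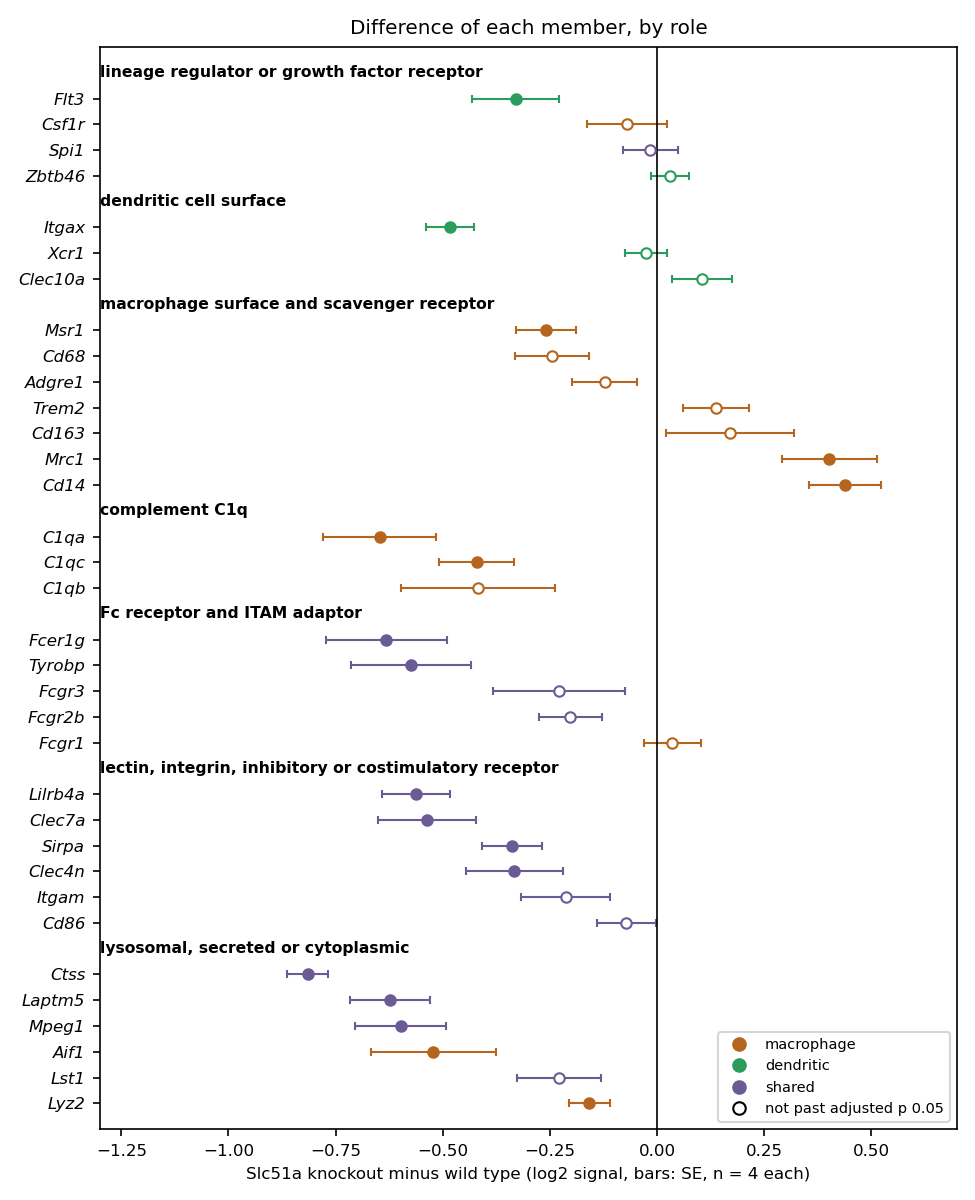
Knockout minus wild-type difference of each member (log2 signal, bars give the SE, n = 4 per genotype), grouped by role and coloured by class, with open circles where the adjusted p was not under 0.05. Ctss lies farthest to the left at -0.82, and Cd14 and Mrc1 lie to the right at 0.44 and 0.40.

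Genes of the lysosome, of secretion and of the phagocyte cytoplasm held the largest fall, and 5 of 6 were lower. Ctss, or cathepsin S, the protease that trims the invariant chain of MHC class II molecules, was at 10.52, 10.39, 10.47 and 10.40 in knockout samples and at 11.31, 11.26, 11.26 and 11.22 in wild-type samples. Each genotype spanned a narrow range and the ranges were far apart. Ctss fell by 0.82 (SE 0.05, adjusted p = 1.27e-06), 1.76-fold lower, and its difference ran from -0.91 to -0.79 over the 21 alternatives. Laptm5, a lysosomal membrane protein of blood cells in general, was at 6.73, 7.02, 6.83 and 7.08 in knockout samples and at 7.31, 7.61, 7.58 and 7.65 in wild-type samples. Mpeg1, the pore-forming protein perforin-2 of phagocytes, was at 7.65, 7.64, 7.93 and 7.67 in knockout samples and at 8.40, 7.98, 8.48 and 8.42 in wild-type samples. The Mpeg1 groups nearly met, through knockout replicate 3 and wild type replicate 2. Laptm5 fell by 0.62 (SE 0.09, adjusted p = 0.000473) and Mpeg1 by 0.60 (SE 0.11, adjusted p = 0.00144), with both calls kept in all 21 alternatives.

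Aif1, the calcium-binding protein Iba1 of macrophages, was at 5.03, 5.15, 5.35 and 5.34 in knockout samples and at 5.99, 5.26, 5.98 and 5.72 in wild-type samples. Wild type replicate 2 lay inside the knockout range. Aif1 fell by 0.52 (SE 0.15, adjusted p = 0.0191), and by 0.68 without that sample (adjusted p = 0.000714). The call was lost without knockout replicate 1 (adjusted p = 0.0557), wild type replicate 1 (0.0553) or wild type replicate 3 (0.058). Lst1, the next protein-coding gene after Aif1 on chromosome 17, averaged 5.70 ± 0.24 in knockout and 5.92 ± 0.05 in wild-type samples. Its groups did not overlap, and its difference of -0.23 did not pass (adjusted p = 0.111). Lyz2, the lysozyme of macrophages, averaged 13.15 ± 0.07 in knockout and 13.31 ± 0.02 in wild-type samples, against highest signals of 13.23 to 13.29 on knockout arrays and 13.31 to 13.38 on wild-type arrays. Lyz2 fell by 0.16 (SE 0.05, adjusted p = 0.0292), a call lost in 10 of 21 alternatives and at -0.08 with quantile scaling (adjusted p = 0.295). It is among the members whose probe sets may bind similar transcripts, and Lyz1, the lysozyme of Paneth cells, differed by -0.16 (adjusted p = 0.102).

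Macrophage genes and dendritic cell genes did not separate from each other. Among the 14 macrophage genes 2 rose (14.3%) and 5 fell (35.7%), and their median difference was -0.14. Of all genes 17.1% rose and 12.9% fell. Among the 5 measured dendritic cell genes 2 fell (40%) and 0 rose, and the median was -0.03, that of the dim gene Xcr1. Among the 15 shared genes 9 fell (60%) and 0 rose, with a median of -0.34. Without wild type replicate 1, and likewise without replicate 3, 3 macrophage genes fell. Leaving out knockout replicate 3 or 4, or any wild-type sample, left 1 dendritic cell gene, Itgax. The macrophage median was lower than the dendritic one by 0.11, but without dim genes, which leaves out Xcr1 and Clec10a, the same subtraction gave 0.19. Taken as the mean of the genes on each array, macrophage minus dendritic deviation from wild type was 0.06, -0.19, 0.12 and 0.09 in knockout samples. In wild-type samples it was 0.10, -0.13, 0.04 and -0.003. These overlapped, and the mean over arrays, 0.02 in the knockout, had the opposite sign to the difference of medians. Only 5 dendritic cell genes were measured, 2 of them dim.

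The shared genes were lower on every knockout array than on every wild-type array, and the macrophage genes were not. Macrophage genes deviated on average from their wild-type mean by -0.04, -0.25, -0.04 and -0.15 in knockout samples and by 0.11, -0.20, 0.06 and 0.04 in wild-type samples. Shared genes deviated by -0.40, -0.43, -0.35 and -0.41 in knockout samples and by 0.06, -0.16, 0.06 and 0.05 in wild-type samples. Wild type replicate 2 was the lowest wild-type sample in 23 of 34 members and in 11 of 14 macrophage genes. It was also the array with the lowest mean of hybridization controls, 8.11, where knockout replicates 3 and 4 had 8.13 and 8.22 and the others 8.49 to 8.78. The part of these controls in the pattern was not tested beyond the fits given. Without wild type replicate 2, 18 members fell and 1 rose, and without replicate 2 of both genotypes, a fit added once the values were known, 17 fell and 2 rose.

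**Figure D4:**
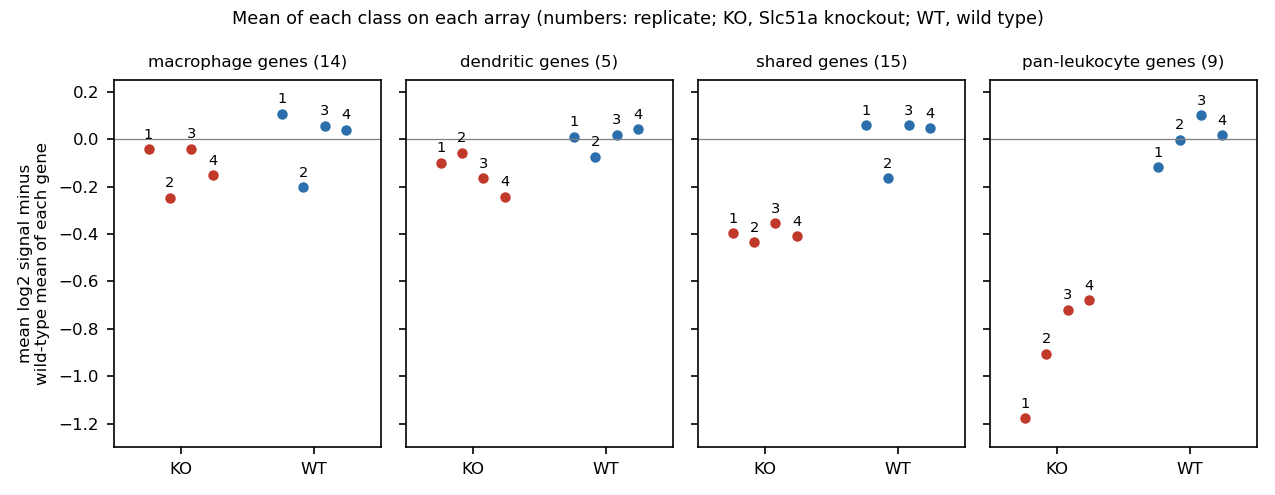
Mean log2 signal of each class on each array, less the wild-type mean of each gene, with replicate numbers beside the points and the pan-leukocyte markers at the right. Knockout and wild type overlap for macrophage and dendritic genes, and do not for shared genes or for the pan-leukocyte genes, whose 4 knockout arrays lie between -1.18 and -0.68.

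Transcripts of leukocytes at large were lower by more than those of most members. Of 9 measured pan-leukocyte genes 9 fell, with a median difference of -0.78, and Cd52, Rac2, Was and Itgb2 had the smallest adjusted p. Rac2, a small GTPase of blood cells, fell by 0.65 (SE 0.07, adjusted p = 3.8e-05) and Itgb2, the beta chain that pairs with CD11b and CD11c, by 0.78 (SE 0.09, adjusted p = 0.000107). The mean level of these 9 genes was 6.51 to 7.01 in knockout samples and 7.57 to 7.79 in wild-type samples. Among knockout samples it was lowest in replicate 1, where the macrophage genes were near their wild-type mean. T lymphocyte genes had 9 of 12 lower and a mean level of 4.99 to 5.17 in knockout samples against 5.86 to 5.98 in wild-type samples. Their median difference was -0.29, and the farthest from 0 were Gzma at -2.90 and Gzmb at -2.62. B lymphocyte and plasma cell genes had 6 of 9 lower, at 5.53 to 6.03 in knockout samples against 6.12 to 6.52 in wild-type samples. Natural killer cell genes had 3 of 6 lower (50%) and 1 higher (16.7%), where 12.9% and 17.1% of all genes fell and rose. They averaged 4.00 to 4.13 in knockout samples and 4.53 to 4.63 in wild-type samples. The part of these cells in the falls of Laptm5, Fcer1g, Tyrobp and Lilrb4a, which lymphocytes or natural killer cells can also express, was not tested. Nor was it tested for the other members that fell, Ctss, Mpeg1 and Itgax among them.

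Most granulocyte and mast cell markers did not pass the test. Of 11 granulocyte genes 1 fell, Siglecf, which eosinophils express, by 0.66 (SE 0.15, adjusted p = 0.00732). The eosinophil genes Epx and Prg2 differed by 0.06 (adjusted p = 0.555) and 0.04 (adjusted p = 0.691). Of the 11 genes 8, Siglecf among them, were dimmer than the median probe set. The mean level of the 11 was 4.12 to 4.22 in knockout samples and 4.19 to 4.24 in wild-type samples. Of 10 mast cell genes 1 fell, Kit, which pacemaker cells of the gut also express, by 0.52 (adjusted p = 0.0182). The shares that fell, 9.09% of granulocyte and 10% of mast cell genes, were near the 12.9% of all genes. Mast cell genes averaged 4.11 to 4.37 in knockout samples and 4.27 to 4.54 in wild-type samples. Markers of epithelium and muscle were lower as well. Of those measured, 8 of 9 mature enterocyte genes and 8 of 8 smooth muscle genes fell. Enterocyte genes averaged 10.13 to 10.25 in knockout samples and 10.70 to 10.86 in wild-type samples, and smooth muscle genes 8.42 to 8.69 in knockout samples and 9.18 to 9.60 in wild-type samples. Of 6 fibroblast genes 1 rose, Pdgfra, at 0.20 (adjusted p = 0.0212), a share of 16.7% against 17.1% of all genes. Of 3 Paneth cell genes 0 passed. The part of a change in muscle or epithelium in the member genes was not tested.

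Other genes of the same cells were listed by pathway. Of 93 measured genes 42 fell (45.2%) and 4 rose (4.3%), against 12.9% and 17.1% of all genes, and their median difference was -0.17. None of 5 growth factor genes passed by limma, 0 of them at an unadjusted p under 0.05. Csf1 averaged 6.41 in knockout and 6.42 in wild-type samples, and Flt3l, Il34, Csf2 and Tgfb1 were dimmer than the median probe set. Of 15 cytokine receptors and transcription factors, 1 rose (6.67%) and 9 fell (60%), with a median of -0.32. Csf2rb, the common beta chain of the GM-CSF receptor, fell by 0.55 (SE 0.07, adjusted p = 0.000141), and Relb, an NF-kappaB subunit that dendritic cells need, by 0.86 (SE 0.07, adjusted p = 6.89e-06). Id2 and Ikzf1, which lymphocytes also use, fell by 0.79 and 1.13. Of 11 genes of monocytes and recruitment, 0 rose and 5 fell (45.5%). Ccl20, an epithelial chemokine, fell by 0.80 (SE 0.12, adjusted p = 0.000515) and its receptor Ccr6 by 0.46 (adjusted p = 0.0254). Xcl1, the ligand of Xcr1, fell by 0.32 but was dim, and Cx3cl1, the ligand of the macrophage receptor Cx3cr1, fell by 0.33 (adjusted p = 0.00335).

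Of 17 other dendritic cell genes 11 fell (64.7%, against 12.9% of all genes) and 0 rose, with a median of -0.32. Cd209a, Cd80, Ccl22, Ccl17, Cd207 and Naaa did not pass, with differences from -0.13 to 0.11. Cd80, Ccl22, Cd207 and Naaa were dim. Ly75, the endocytic receptor DEC-205, fell by 0.78 (SE 0.07, adjusted p = 1.36e-05), and Fscn1, the actin-bundling protein of mature dendritic cells, by 0.87 (SE 0.11, adjusted p = 0.000137). Ccr9, a gut homing receptor, and Itgae, the CD103 chain, fell by 0.67 and 0.78, and both are also genes of gut T lymphocytes. The part of lymphocytes and epithelium in the falls of this list was not tested. Of 19 other tissue macrophage genes 7 fell (36.8%) and 1 rose (5.26%), with a median of -0.13. Ly86, also called MD-1, fell by 0.59 (SE 0.10, adjusted p = 0.000959), and the membrane proteins Ms4a6d and Ms4a6c by 0.61 and 0.45. Lyve1, which macrophages along vessels and lymphatic endothelium both express, rose by 0.41 (SE 0.07, adjusted p = 0.00135).

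Of 13 genes of ITAM and ITIM signalling 3 fell (23.1%) and 0 rose, with a median of -0.08. With so few genes, the share that fell is not far from the 12.9% of all genes. Inpp5d, the phosphatase SHIP1, fell by 0.60 (SE 0.06, adjusted p = 4.92e-05), Hcst, the adaptor DAP10, by 0.34 (adjusted p = 0.000767) and Cd47, the ligand of Sirpa, by 0.39 (adjusted p = 0.000228). The kinase Syk, which ITAMs recruit, averaged 3.91 in knockout and 3.79 in wild-type samples, dimmer than the median probe set. Of 13 genes of the phagosome and lysosome, 2 rose (15.4%), 7 fell (53.8%) and 4 did not pass. The share that rose was near the 17.1% of all genes. Cybb, the catalytic subunit of the phagocyte oxidase, fell by 0.74 (SE 0.07, adjusted p = 2.13e-05), and the proteases Lgmn and Ctsh by 0.46 and 0.39, while the cathepsin Ctsz rose by 0.36 (SE 0.05, adjusted p = 0.000289). All 9 measured genes of MHC class II presentation fell, with a median of -1.97, and the largest fall among the members was that of Ctss, 0.82.

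**Figure D5:**
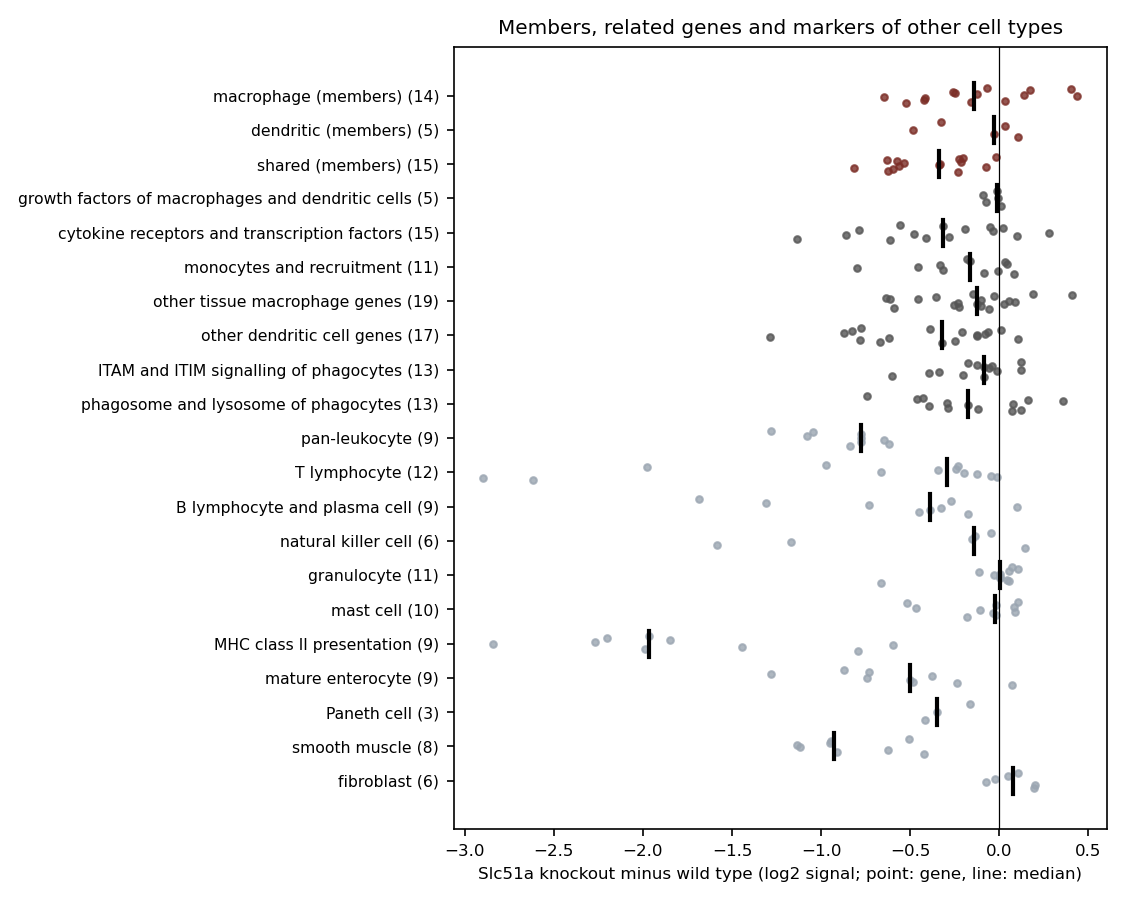
Knockout minus wild-type difference (log2 signal) of every measured gene (points) in the member classes, the related lists and the marker lists, with the median of each list as a line and the number of genes in brackets. T lymphocyte genes reach -2.90 (Gzma), class II genes -2.84 and pan-leukocyte genes -1.28. The members lie between -0.82 and 0.44, and the growth factor genes lie close to 0.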

How the data were processed

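Biotin-labelled RNA was made from 250 ng of purified ileal RNA and hybridised to Affymetrix arrays, per the labels' protocols. The deposited values are log2 signals of probe sets from RMA, which the submitters' processing notes name; no version is in the sources used here. RMA compresses low signals, so differences of dim genes are understated, and the table gives no detection calls. Of 45037 probe sets that are not controls, 28898 had 1 gene symbol, 551 several and 15588 none listed; 28689 of the 28898 matched RefSeq by Entrez identifier. A gene was read at its brightest probe set over all 8 arrays, with no filter, which gave 17097 genes.

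The comparison of knockout with wild type used lmFit and eBayes of limma 3.58.1 (R 4.3.3), 2-sided, adjusted over all genes, threshold 0.05. All measured members are named, with up to 4 called genes of each other list by smallest p; other genes are named after their values were seen. Members and lists were chosen with earlier results of these data known, so no list is given a p. In simulated data for this comparison with 17097 genes, 50 genes were changed at each size. There 42% of changes of 0.25 and 94% of changes of 0.5 were recovered, with 2 false calls. In the data 30.0% of genes passed, a far larger share, so these rates need not hold there. The labels call the samples biological replicates. Alternatives were quantile, cyclic loess and median scaling, the mean of probe sets, all probe sets, a filter on dim genes, trend and robust eBayes, an unmoderated test, weights per array, a replicate block, hybridization controls as a covariate, leaving out arrays, and thresholds of 0.01 and 0.1. No array batch is in the sources used here, so a batch that runs with genotype cannot be told apart from it. Having 4 arrays of each genotype limits the precision. Promoter sequences are from RefSeq (GRCm38.p6).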

Additional observations from a re-analysis of the deposited data

Results flagged for a closer look

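Of 68 groups of 4 samples tested, 3 held a sample far from the others, and chance flags about 1 in 20 groups. Mpeg1 in knockout replicate 3 was at 7.93, above the other knockout samples at 7.64 to 7.67. Mpeg1 in wild type replicate 2 was at 7.98, below the other wild-type samples at 8.40 to 8.48. Trem2 in wild type replicate 3 was at 5.04, above the other wild-type samples at 4.98 to 4.99, a gap too small to bear on a result.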

How the results depend on the processing

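Of the 18 members past the threshold, 9 stayed past it in all 21 alternative fits and 0 changed sign, and of the 16 others 8 passed in at least 1. The unmoderated test called 10 members lower and 1 higher, 3 of them lower among macrophage genes and 1 among dendritic genes. With hybridization controls as a covariate 2 macrophage and 1 dendritic gene were lower. Without the 3 arrays with the lowest of these controls 1 member was higher, 1 dendritic gene was lower and the members' median was -0.31. Without dim genes the members' median was -0.33 and macrophage minus dendritic was 0.19. With the dendritic genes narrowed to Flt3, Zbtb46 and Xcr1, a list that was to hold Siglech too, it was -0.11. Xcr1 is the median gene of both dendritic lists, so this value could not differ from the main one. At a threshold of 0.01, 1 member was higher, with 2 macrophage and 1 dendritic gene lower. Leaving out 1 array gave 12 (without wild type replicate 1) to 18 (without wild type replicate 2) members lower, 1 to 3 higher, 3 to 7 macrophage genes lower and 1 to 2 dendritic genes lower. The replicate block called 17 members lower, with C1qb (adjusted p = 0.0343) and Cd68 (0.0267) gained and Lyz2 lost (0.0517). Deviations from group means of same-numbered samples correlated at 0.22, -0.05, 0.11 and 0.16 for replicates 1 to 4. Knockout replicates 1, 3 and 4 and wild type replicates 1 and 4 correlated best with their own number. Knockout replicate 2 and wild type replicates 2 and 3 did not. This is at most a weak hint of pairing that the labels do not state, and with replicate 2 below 0 the numbers were not taken to pair the samples. Sign changes were in uncalled genes. Spi1 was at 0.0107 (quantile), 0.0030 (loess), 0.0062 (median scaling) and 0.0328 (without replicate 2 of both genotypes), and at -0.0629 to 0.0317 on leaving out 1 array. Leaving out 1 array gave Fcgr1 from -0.0145 to 0.0672 and Xcr1 from -0.0405 to 0.0034. Zbtb46 was at -0.0406 with the mean of probe sets. Changes of genes near the floor of the scale are the least certain.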
